A study of Mus musculus with 28 samples.

Results

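This account compares mouse embryonic stem cells carrying the D1810Y form of DICER1 with the same kind of cells carrying wild-type DICER1. Their levels and the differences between them come from 6 of the 28 arrays of the series, chosen by title. Of these, 3 are of Dicer-/- cells with D1810Y, numbered 1 to 3. The other 3 are of Dicer-/- cells with wild-type DICER1, also numbered 1 to 3. All 6 carried the transgene in the vector pLD-puro-ENvA, and all lacked the cells' own Dicer (genotype Dicer-/-). Other groups are used to place these values. They are Dicer-/- cells with DICER1 E1705K, with DICER1 D1709A (arrays 1 to 3) and with an eGFP transgene, each in the same vector on 3 arrays. The 2 arrays of untransduced Dicer+/+ cells serve in the same way. Standard errors and p-values come, unless stated otherwise, from a model of all 28 arrays, including groups not named here. They use spread pooled over the groups, with 16 residual degrees of freedom, and not that of the 6 arrays alone. The model also draws each gene's spread towards that of other genes, which adds a median of 13.1 degrees of freedom.

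RNA came from log-phase cultures in embryonic stem cell medium and was measured on an Affymetrix Mouse Gene ST array, which reads each gene with one or more sets of short probes. Values are deposited log2 levels, on which a difference of 1 is a 2-fold change, and the number of arrays limits their precision. The labels do not say whether the 3 arrays of a group came from separate cultures or from 1 transduced pool or clone, so p-values cover only array-to-array spread, part or all of which may be technical. They also do not give the species of the DICER1 transgene or the promoter that drives it. Within a group, the standard deviation of the median gene was 0.0624 for D1810Y and 0.0444 for wild type. Median levels of the 28 arrays lay between 7.14 and 7.27.

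DICER1 is the ribonuclease that cuts hairpin precursors into mature microRNAs (miRNAs), the small RNAs that guide Argonaute proteins to messenger RNAs and lower their output. It carries a pair of catalytic domains, and RNase IIIa cuts the 3p arm of the hairpin while RNase IIIb cuts the 5p arm. D1810, like D1709 and E1705, is a metal-binding residue of RNase IIIb, and changes there are recurrent in DICER1-associated tumours. In mouse embryonic stem cells the miR-290 and miR-302 families promote the cell cycle and self-renewal, whereas the let-7 family, held back by the RNA-binding proteins LIN28A and LIN28B, is associated with differentiation.

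Markers of embryonic stem cells were high in both groups. Pou5f1, the pluripotency factor OCT4, averaged 12.74 in D1810Y cells and 12.59 in wild-type cells, near the top of the array's range. Nanog averaged 12.62 in D1810Y cells and 12.97 in wild-type cells. Of 27 markers of fibroblasts, trophoblast, endoderm, neural cells and mesoderm, 17 passed the level of 6.42 below which a gene was not tested, and 10 did not. Lum (fibroblasts), Tpbpa (trophoblast), Ttr (endoderm) and Dcx (neurons) were among these 10, at 4.1 to 5.33 in D1810Y cells and 4.12 to 5.32 in wild-type cells. The 10 also held 2 fibroblast markers above 6.42 in 1 group. Postn averaged 5.0 in D1810Y and 7.53 in wild-type cells, and Dcn 6.97 in D1810Y and 5.83 in wild-type cells. Those that passed included Krt7 (trophoblast), with means of 8.62 in D1810Y cells and 9.27 in wild-type cells, Col1a1 (fibroblasts), with 8.16 in D1810Y and 8.44 in wild-type cells, and Tubb3 (neurons), with 8.83 in D1810Y and 7.67 in wild-type cells. The part of such cells in the results was not tested. The mouse Dicer1 probe set read 9.27, 9.27 and 9.3 in D1810Y cells, 9.39 on average in eGFP cells and 9.26, 9.26 and 9.27 in wild-type cells. The D1810Y and wild-type levels differed by 0.017 (SE 0.0478, adjusted p = 0.788). In Dicer+/+ cells it averaged 10.68. No source used here says whether this probe set reads the transgene, so it does not check the transgene labels.

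One property of the deposited table bears on all that follows. Within 5 groups the deviation of array 1 from its group mean was not independent: summed over the 5 groups, these deviations came to 0 for every probe set to within 1.83e-04. The 5 groups were wild type, E1705K, D1709A, untransduced Dicer-/- cells and untransduced Dicer+/+ cells. The D1810Y and eGFP arrays entered no such relation. The separate average of 2 wild-type arrays in another vector, pLD-puro-PGKnvA, equalled the average of wild-type ENvA arrays 1 to 4 for every probe set to within 7.5e-05. In all 3 such relations were found, of which 2 are described here. The wild-type array numbered 4 had the largest weight in them, 0.458 on a scale where 1 is full. The spread of the wild-type, E1705K and D1709A arrays may therefore not be that of independent samples, and 16 residual degrees of freedom may be too many. The relation between the 2 vectors joins mean levels, so differences from D1810Y cells may also be affected, which was not tested. Wild-type array 4, set beside other values below, is also not independent of the other arrays.

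Shown here are mature strands of miRNAs whose genes were called different between D1810Y and wild-type cells, picked after their values were seen because they fall into groups with a shared seed. The seed, bases 2 to 8, chooses a miRNA's targets and is in capitals. All are RefSeq entries on build GRCm38.p6, and 270 of the array's 296 named miRNA hairpins have one.
miR-302b-3p: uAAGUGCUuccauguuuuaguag
miR-302d-3p: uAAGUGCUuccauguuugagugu
miR-302c-3p: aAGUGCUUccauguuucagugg
miR-106a-5p: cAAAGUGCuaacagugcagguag
miR-20b-5p: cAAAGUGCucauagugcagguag
miR-367-3p: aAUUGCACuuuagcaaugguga
miR-363-3p: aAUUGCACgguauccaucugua
let-7f-5p: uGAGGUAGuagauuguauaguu
let-7d-5p: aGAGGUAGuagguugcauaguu
miR-98-5p: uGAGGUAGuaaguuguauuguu
The seed of miR-302b and miR-302d is AAGUGCU, and miR-302c carries AGUGCUU, which starts 1 base later in the same letters. The seed AAAGUGC of miR-106a and miR-20b shares that core. A second seed, AUUGCAC, is common to miR-367 and miR-363, which lie in different clusters, on chromosome 3 (chr3:127545779-127545800, plus strand) and chromosome X (chrX:52741697-52741718, minus strand). The third, GAGGUAG, is the let-7 seed and is also that of miR-98.

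The genes of the miR-302 and miR-367 cluster were far higher in D1810Y cells. Its 5 hairpins lie at chr3:127545228-127545807, all inside the gene Larp7 (chr3:127536714-127553349). The hairpin probe set of Mir302b read 8.96, 8.75 and 8.91 in D1810Y cells, 7.7, 7.41 and 7.72 in eGFP cells and 4.5, 4.32 and 4.38 in wild-type cells (adjusted p against wild type = 2.70e-24, limma). Mir302d read 8.99, 8.77 and 9.03 in D1810Y cells, against 5.51, 5.4 and 5.36 in wild-type cells (adjusted p = 3.54e-21). Mir302c read 9.03, 8.63 and 8.91 in D1810Y cells, against 4.39, 4.55 and 4.5 in wild-type cells (adjusted p = 2.09e-21). Every D1810Y array lay above every wild-type array for these 3 hairpins, and array 2 was the lowest of the D1810Y arrays in each. Such separation was common: among the 13956 genes tested, 4885 lay above all wild-type arrays in this way and 4369 below.

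Mir302a and Mir367 moved in the same direction. Mir302a read 8.58, 7.93 and 8.33 in D1810Y cells and 4.45, 4.66 and 4.51 in wild-type cells (adjusted p = 4.21e-18). Mir367 read 6.96, 6.12 and 6.72 in D1810Y cells and 3.82, 3.87 and 3.98 in wild-type cells (adjusted p = 7.46e-13). Wild-type means of all 5 hairpins were under 6.42, near the floor of the array, so no fold is given. The wild-type array numbered 4, which is not among the 3 compared, lay below every D1810Y array for each of the 5. It also lay above all 3 compared wild-type arrays for each. That array read 5.66 for Mir302b, 6.45 for Mir302d, 5.66 for Mir302c, 5.56 for Mir302a and 4.54 for Mir367. The host gene did not rise with them. Larp7, which encodes a protein that binds the 7SK small nuclear RNA, read 11.14, 11.25 and 11.40 in D1810Y cells and 11.46, 11.47 and 11.43 in wild-type cells, a difference of -0.19 (SE 0.0495, adjusted p = 0.00153).

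D1810Y cells were also above every other ENvA group for this cluster. For Mir302b the mean was 8.87 in D1810Y cells, 7.33 in E1705K cells, 7.37 in D1709A cells, 7.61 in eGFP cells and 4.4 in wild-type cells. Against the mean of E1705K and D1709A, Mir302b was higher by 1.52 (SE 0.0934, adjusted p = 4.03e-13), Mir302d by 1.56 (SE 0.10), Mir302c by 1.72 (SE 0.122) and Mir302a by 1.63 (SE 0.142). Against eGFP cells, which have no DICER1 transgene, Mir302b was higher by 1.26 (SE 0.108, adjusted p = 1.53e-11), Mir302d by 1.32, Mir302c by 1.33 and Mir302a by 1.4 (SE 0.116, 0.141 and 0.164). So for these 4 hairpins D1810Y cells were not between eGFP and wild-type cells but outside both. Which RNA these probe sets read, the primary transcript, the hairpin or the mature strand, was not tested.

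A related cluster on chromosome X, miR-106a to miR-363, moved the same way. Mir363 rose by 1.98 (SE 0.103, adjusted p = 1.91e-16), reading 8.73, 8.53 and 8.74 in D1810Y cells, 6.72 on average in eGFP cells and 6.7, 6.56 and 6.79 in wild-type cells. For Mir363 the eGFP level stood beside that of wild type, and D1810Y exceeded the mean of E1705K and D1709A by 0.74 (SE 0.0891, adjusted p = 2.18e-07). Mir106a read 7.01, 6.7 and 6.89 in D1810Y cells, against 6.14, 5.96 and 6.22 in wild-type cells (adjusted p = 1.20e-07). Mir20b read 6.41, 5.93 and 6.33 in D1810Y cells, against 5.4, 5.55 and 5.38 in wild-type cells (adjusted p = 6.61e-06). Mir19b-2 and Mir92-2 of this cluster were higher as well (adjusted p = 1.49e-05 and 0.00679). The groups' arrays did not overlap for Mir106a, Mir20b or Mir19b-2, which was also so for many of the genes tested.

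The paralogous miR-17 cluster on chromosome 14 makes miRNAs with much the same seeds. Of its 5 hairpins measured here, 3 were called lower and 0 higher. In that fit, without a filter on low levels, 21.0% of all genes were called lower and 23.0% higher. Mir19b-1, Mir20a and Mir19a were lower, with log2 differences of -0.63, -0.38 and -0.29 (adjusted p = 4.85e-07, 0.00189 and 0.00235). Mir17 (-0.021) and Mir18 (-0.083) were not called (adjusted p = 0.89 and 0.303). The means of the 3 lower hairpins were 8.56, 7.77 and 8.54 in D1810Y cells, against 9.19, 8.15 and 8.84 in wild-type cells.

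Some genes with the let-7 seed were lower. Of 9 Mirlet7 hairpins, 3 were called lower and 6 were not called, and in the same fit without a filter on low levels 21.0% of all genes were called lower. Mirlet7d fell by 0.71 (SE 0.0878, adjusted p = 4.87e-08), reading 8.44, 8.09 and 8.33 in D1810Y cells, 8.54 on average in eGFP cells and 9.01, 8.96 and 9.01 in wild-type cells. Its neighbour Mirlet7f-1 read 6.13, 5.63 and 5.9 in D1810Y cells and 7.04, 6.82 and 7.03 in wild-type cells (adjusted p = 1.11e-07). Mir98, with the same seed, fell by 0.71 (SE 0.117, adjusted p = 6.15e-06), and Mirlet7e differed by -0.31 (adjusted p = 1.97e-04). D1810Y and wild-type arrays did not overlap for Mirlet7d, Mirlet7f-1 or Mir98, and 4369 of the 13956 genes tested lay below in the same way. Outside this family, Mir505 fell by 1.14 (SE 0.0762, adjusted p = 7.64e-14), to 8.08 in D1810Y cells, against 8.92 in E1705K, 8.37 in D1709A and 9.21 in wild-type cells. Mir7-1, which lies within a widely expressed host gene, fell by 0.77 (adjusted p = 1.55e-12).

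Most hairpins were not called. Of the 296 hairpins, 110 passed the level of 6.42. In a fit without that filter, 21 hairpins were called higher and 28 lower at adjusted p under 0.05, and 247 were not called. Over all 19938 genes of that fit 23.0% were called higher and 21.0% lower. The median difference was -0.039 for the hairpins and -0.016 for all genes.

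**Figure D1:**
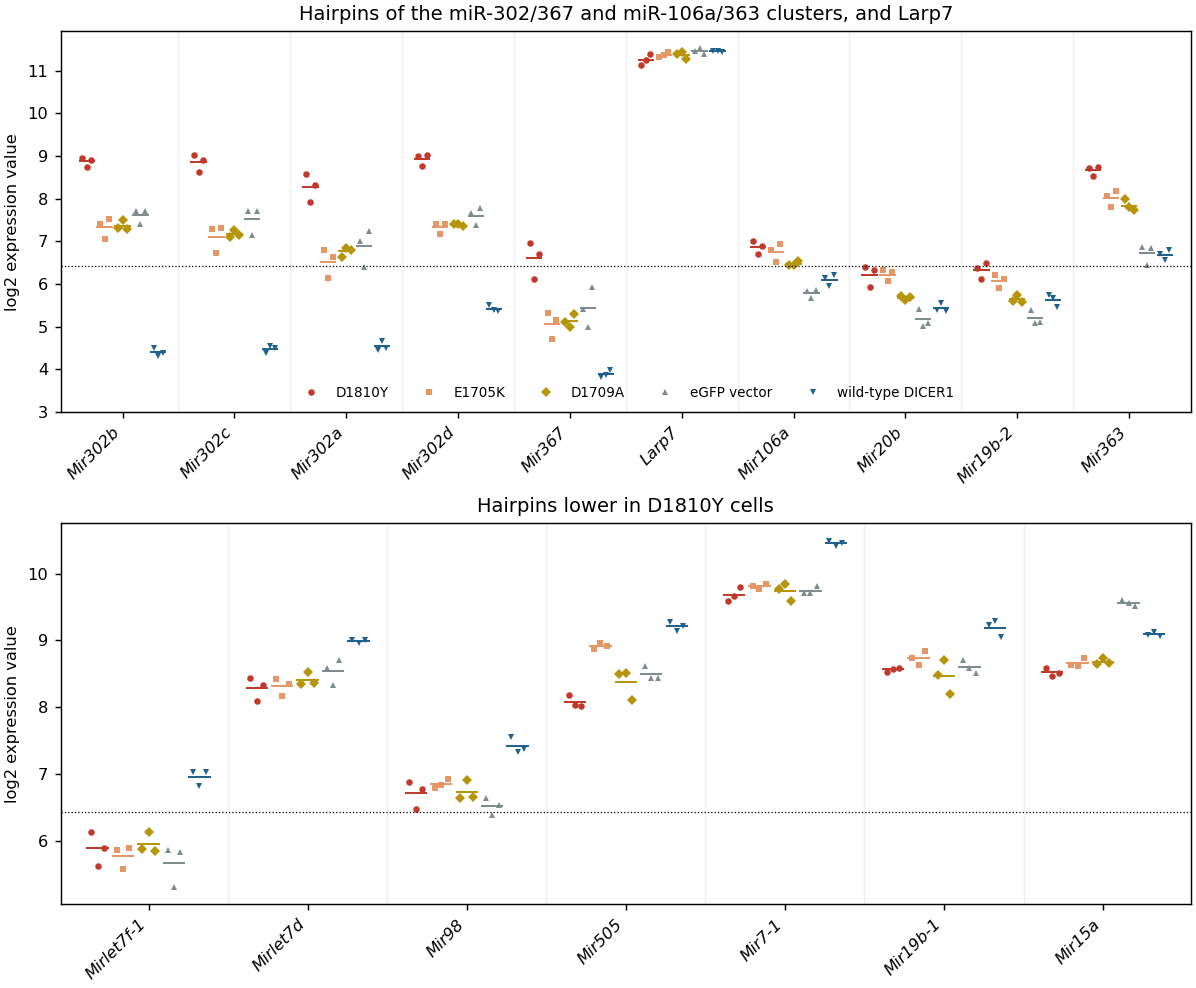
Log2 level of miRNA hairpin probe sets (points, 1 per array; dash, group mean) in D1810Y, E1705K, D1709A, eGFP and wild-type cells, with the host gene Larp7 and a dotted line at the filter level of 6.42. The miR-302 and miR-367 hairpins reach their highest levels in D1810Y cells and their lowest in wild-type cells, while Larp7 does not follow; Mirlet7f-1, Mirlet7d, Mir98, Mir505 and Mir7-1 are lower in D1810Y cells than in wild-type cells.

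Across the 13956 genes tested, D1810Y and wild-type cells differed widely but mostly by little. At adjusted p under 0.05 (limma, Benjamini-Hochberg), 4457 genes (31.9%) were higher in D1810Y cells and 3930 (28.2%) lower. Of these, 193 (1.38%) were higher and 151 (1.08%) lower by at least 2-fold. The median absolute difference was 0.187. The labels also hold 1 further wild-type array in the same vector, numbered 4 and left out of the comparison. Set against it alone, 190 of the 193 genes and 151 of the 151 genes kept their direction, and all 3 D1810Y arrays lay beyond it for 190 and 151 genes. The median size was 0.679 and 0.676 of that against arrays 1 to 3. Over all called genes the direction turned for 611 of the 4457 higher and 515 of the 3930 lower genes. The same D1810Y arrays chose these genes, and array 4 is tied to other wild-type arrays, so these counts are no independent check.

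The genes with the largest rises had varied roles. Car3, a carbonic anhydrase of muscle and fat, read 9.38, 9.25 and 9.41 in D1810Y cells, 6.53 on average in eGFP cells and 6.66, 6.49 and 6.67 in wild-type cells, a rise of 2.74 (SE 0.0875, adjusted p = 1.73e-21). Slc40a1, the iron exporter ferroportin, read 10.20, 10.18 and 10.18 in D1810Y cells, against 7.69, 7.56 and 7.53 in wild-type cells, a rise of 2.59 (SE 0.0526). The wild-type array numbered 4 read 8.87 for Slc40a1 and 7.62 for Car3, closer to the D1810Y level but below every D1810Y array. Lrp2, the endocytic receptor megalin, rose by 2.58 (SE 0.0441), reading 10.77, 10.72 and 10.76 in D1810Y cells and 8.21, 8.15 and 8.16 in wild-type cells. Both Slc40a1 and Lrp2 were also above eGFP cells, which averaged 8.51 and 9.63.

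Further rises of more than 4-fold were those of Slc27a2 (2.4), a very-long-chain fatty acid transporter and acyl-CoA synthetase, Fndc3c1 (2.51) and Car2 (2.17), the widespread cytosolic carbonic anhydrase. Has2, which makes hyaluronan, rose by 2.14, the survival kinase gene Pim2 by 2.09, the lysophosphatidic acid receptor gene Lpar4 by 2.07, cardiac actin Actc1 by 2.05 and the semaphorin Sema6a by 2.04. Another 3 had wild-type means under 6.42 and get levels alone: Cysltr1, a leukotriene receptor, with 8.36 in D1810Y and 5.97 in wild-type cells, Gabra3, a GABA-A receptor subunit, with 8.15 in D1810Y and 5.99 in wild-type cells, and the trypsin inhibitor Spink1 with 8.3 in D1810Y and 6.16 in wild-type cells. The highest adjusted p among these 14 genes was 9.67e-17, for Spink1. Car2 averaged 11.04 in D1810Y cells, 10.68 in eGFP cells and 8.87 in wild-type cells, so the eGFP level was nearer to D1810Y. Pim2 averaged 11.02 in D1810Y cells, 8.87 in eGFP cells and 8.93 in wild-type cells, so the eGFP level was nearer to wild type.

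The largest falls were of a mixed set. A2m, the protease inhibitor alpha-2-macroglobulin, read 6.75, 6.99 and 7.0 in D1810Y cells, 7.67 on average in eGFP cells and 9.66, 9.51 and 9.43 in wild-type cells, a change of -2.62 (SE 0.0807, adjusted p = 6.94e-22). Nab2, a corepressor of EGR transcription factors, read 8.57, 8.58 and 8.52 in D1810Y cells, against 10.91, 10.94 and 10.98 in wild-type cells, a change of -2.39 (SE 0.0676). Nppb, which encodes brain natriuretic peptide, read 7.06, 7.02 and 7.0 in D1810Y cells, against 9.4, 9.33 and 9.44 in wild-type cells, a change of -2.36 (SE 0.0602). For these 3 genes the eGFP means lay between the D1810Y and wild-type arrays.

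Other large falls were those of Prelid2 (-2.28), the peptide transporter gene Slc15a1 (-2.16), Lrrc31 (-2.12), the endoplasmic reticulum retrieval receptor gene Kdelr3 (-2.07), the mitochondrial fatty acid import enzyme gene Cpt1a (-1.97), and the germline genes Rbm44 (-1.96), Sohlh2 (-1.85) and Dazl (-1.84). Lrrc31 read 7.39, 7.46 and 7.42 in D1810Y cells, 9.5, 9.57 and 9.55 in wild-type cells and 8.12 in the wild-type array numbered 4, which lay between them. B4galnt2 and the fibrinogen gene Fgg had D1810Y means under 6.42, of 6.2 and 5.94, against 8.06 and 7.73 in wild-type cells. Bnip3, also among the 14 largest, is described with the hypoxia-inducible genes.

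Genes of the primed epiblast, the later pluripotent state that follows the naive one, were higher in D1810Y cells. Of 18 genes of the primed epiblast and early ectoderm, 14 were called higher (all tested genes, 31.9%), 1 lower (all tested genes, 28.2%) and 3 were not called. Of these, 8 were at least 2-fold higher, and the median was 0.91 (all tested genes, 0.0012). The list and the other lists below were chosen with results of these data in view, and their counts are descriptions, to be read against these same shares, 31.9% higher and 28.2% lower, in each comparison with wild type.

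The primed genes with the largest differences were Pim2, Wnt8a, Cdh2 and Dnmt3b. Pim2 read 11.02, 11.00 and 11.05 in D1810Y cells, against 8.91, 8.9 and 8.99 in wild-type cells, a difference of 2.09 (SE 0.050, adjusted p = 2.70e-24). Wnt8a, a Wnt ligand of the early streak, read 8.81, 8.49 and 8.9 in D1810Y cells, against 6.89, 6.72 and 6.91 in wild-type cells, a rise of 1.89 (SE 0.112, adjusted p = 3.91e-15). The de novo DNA methyltransferase gene Dnmt3b read 11.38, 11.24 and 11.30 in D1810Y cells, against 9.74, 9.74 and 9.79 in wild-type cells, a rise of 1.55 (SE 0.0375). N-cadherin, Cdh2, read 9.65, 9.64 and 9.69 in D1810Y cells and 7.98, 7.83 and 7.95 in wild-type cells, a rise of 1.74 (SE 0.0694). No D1810Y array overlapped a wild-type array for any of the 4 genes, which for Pim2 was a condition of its choice among the largest rises. Of all 13956 tested genes, 4885 had every D1810Y array above every wild-type array, and 4369 had every one below. D1810Y array 2 was the lowest of its group for Wnt8a.

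Among other members, singled out after their values were seen, the epiblast factor gene Pou3f1 rose by 1.4, the growth factor gene Fgf5 by 1.09, neurofilament light chain Nefl by 1.1, the intermediate filament gene Nes by 1.07, Dnmt3a by 0.95 and Lef1 by 0.87. Zic5 fell by 0.42, while Sox1 (0.053), Sox3 (0.031) and Zic2 (-0.13) were not called. Nes read 8.65, 8.32 and 8.23 in D1810Y cells, with array 1 the highest, 7.3, 7.22 and 7.45 in wild-type cells and 8.17 in the wild-type array numbered 4.

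The pattern against eGFP cells differed by gene. Pim2 and Wnt8a exceeded eGFP cells too, by 2.16 and 1.72 (adjusted p = 5.47e-25 and 3.33e-14). Cdh2 averaged 9.66 in D1810Y cells, 9.79 in eGFP cells and 7.92 in wild-type cells, and the difference from eGFP of -0.13 was not called (SE 0.0694, adjusted p = 0.113). Of the 18 genes, 10 were higher and 4 lower than in eGFP cells, where 4576 of all genes (32.8%) were higher and 3591 (25.7%) lower.

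Core and naive pluripotency genes shifted less, and mostly downwards. Of 29 tested, 10 were called higher and 17 lower, with a median of -0.26. Tbx3, a T-box factor of the naive state, read 9.39, 9.31 and 9.29 in D1810Y cells, 10.04 on average in eGFP cells and 10.69, 10.77 and 10.72 in wild-type cells, a change of -1.4 (SE 0.0395, adjusted p = 9.27e-23). Tcl1, an AKT coactivator, read 9.14, 8.98 and 8.99 in D1810Y cells, against 10.34, 10.47 and 10.35 in wild-type cells, a change of -1.35 (SE 0.0599). Utf1, an embryonic stem cell chromatin factor gene, rose by 1.03 (SE 0.0278), and Fgf17 rose by 1.25 (SE 0.0675).

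Tfcp2l1 (-0.71), Klf4 (-0.56), Fgf4 (-0.55), Zfp42 (-0.54), Esrrb (-0.47) and Nanog (-0.35) were all among the 17 lower genes, named here after their values were seen. Pou5f1, by contrast, was slightly higher (0.15). Against eGFP cells 9 of the 29 genes were higher and 17 lower.

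**Figure D2:**
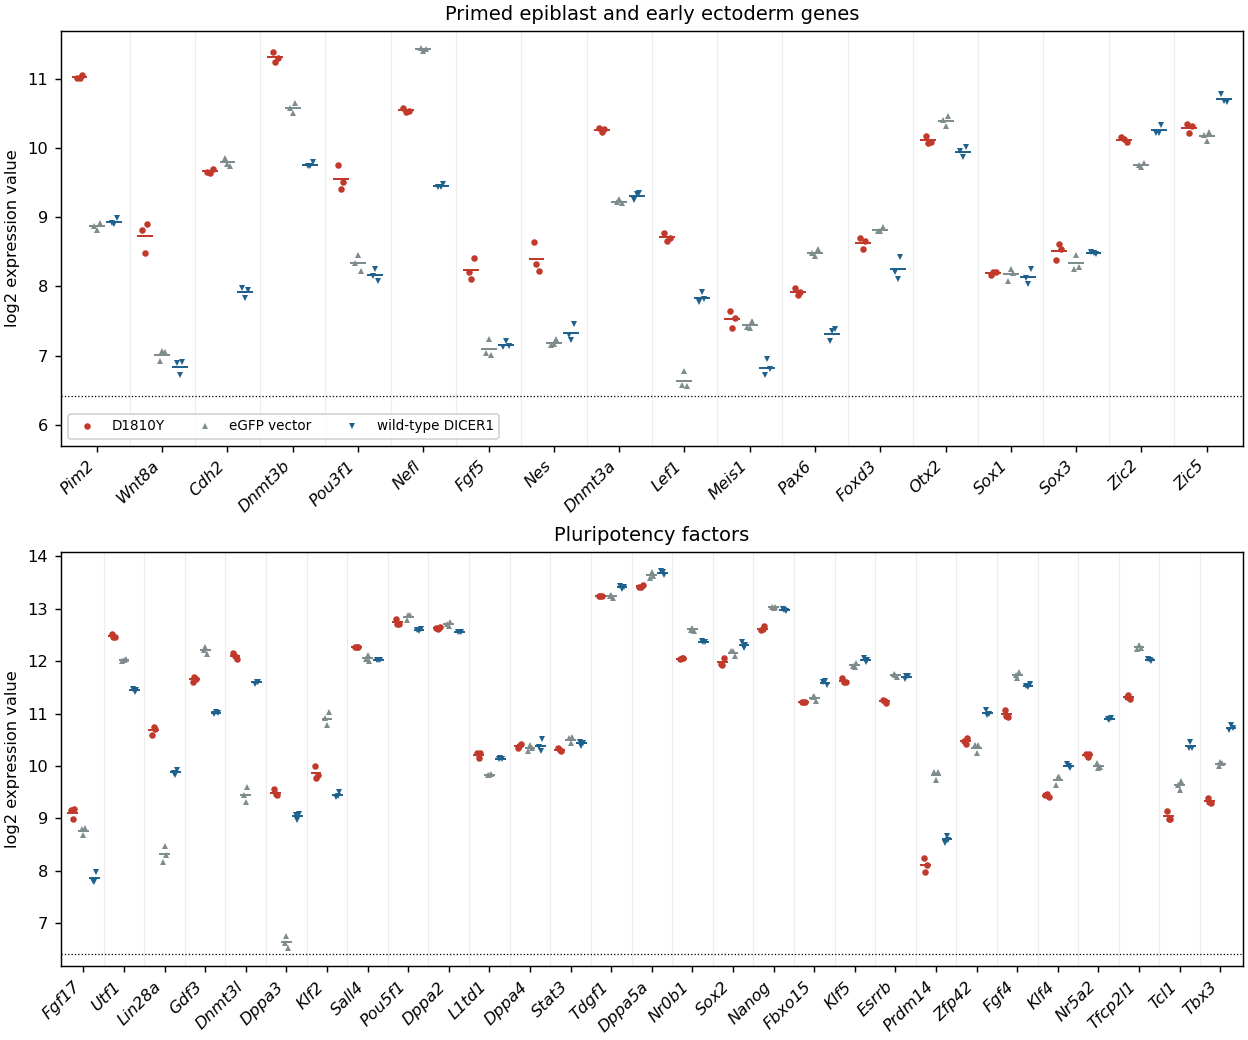
Log2 level of primed epiblast and of pluripotency genes (points, 1 per array) in D1810Y, eGFP and wild-type cells. Pim2 and Wnt8a sit higher in D1810Y cells than in both other groups, whereas Cdh2 in D1810Y cells stands near the eGFP level; Tbx3 and Tcl1 are lower in D1810Y cells.

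Signalling genes of the early embryo gave smaller and mixed differences. In the Nodal, Lefty and Activin list 11 of 20 genes were higher and 6 lower, median 0.15. Lefty1, a secreted Nodal inhibitor, read 10.60, 10.50 and 10.61 in D1810Y cells, 11.55 on average in eGFP cells and 9.09, 9.16 and 9.0 in wild-type cells, a rise of 1.48 (SE 0.0423, adjusted p = 1.07e-22). Foxh1, a partner of SMAD proteins, rose by 1.32, the Activin-binding protein gene Fst rose by 1.27, and Inhbb, which encodes an Activin subunit, fell by 1.04 on the log2 scale. Foxh1 and Fst averaged 9.72 and 9.34 in D1810Y cells, and the wild-type array numbered 4 was nearer to them than arrays 1 to 3, at 9.18 and 8.73.

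Wnt targets were higher in 9 of 15 genes and lower in 1, median 0.30. Ccnd1, cyclin D1, read 11.89, 11.87 and 11.89 in D1810Y cells, against 10.74, 10.72 and 10.73 in wild-type cells, a rise of 1.15 (SE 0.032, adjusted p = 7.08e-23). The Wnt feedback factor gene Sp5 rose by 0.91, Lef1 by 0.87 and the ligand gene Wnt3 by 0.65. BMP pathway genes were higher in 8 of 19 and lower in 4, median 0.031, with Id4 (-0.55) and Bmp7 (-0.51) the largest falls among those tested. Bmp2, a ligand gene under the filter level over all arrays, averaged 5.65 in D1810Y cells and 7.39 in wild-type cells (adjusted p = 4.15e-13, fit without the filter).

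Reported targets of the miRNAs did not move as 1 group. Of 24 reported miR-290 and miR-302 targets, 8 were higher and 9 lower, median 0.017. Those at least 2-fold higher were Lefty1, Ccnd1 and Ccnd2. Ccnd2, cyclin D2, read 9.64, 9.56 and 9.62 in D1810Y cells, 10.64 on average in eGFP cells and 8.45, 8.35 and 8.48 in wild-type cells, a rise of 1.18 (SE 0.0475). Arid4b fell by 0.87. Against eGFP cells the same list stood lower: 21 of 24 genes were lower and 1 higher, median -0.54 (all tested genes, 25.7% lower and 32.8% higher), with Ccnd2 different by -1.04 and Lefty1 by -0.98.

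Of 20 reported let-7 targets, 11 were higher and 3 lower in D1810Y cells, median 0.19. Mycn, the proto-oncogene N-myc, read 11.84, 11.69 and 11.72 in D1810Y cells, against 10.72, 10.76 and 10.77 in wild-type cells, a rise of 1.0 (SE 0.0384). Lin28a read 10.60, 10.74 and 10.71 in D1810Y cells, 8.31 on average in eGFP cells and 9.87, 9.84 and 9.93 in wild-type cells, a rise of 0.8 (SE 0.0528, adjusted p = 4.81e-14), and Lin28b rose by 0.68 (SE 0.064). Against eGFP cells Lin28a differed by 2.37 and Lin28b by -0.33. Reported miR-17 and miR-106 targets were split, 10 of 22 higher and 9 lower (median -0.019), with the proapoptotic gene Bcl2l11 (0.77) and the inhibitory SMAD gene Smad7 (-0.92) in opposite directions. Bcl2l11 read 10.21, 10.24 and 10.20 in D1810Y cells and 10.13 in the wild-type array numbered 4. The 2-fold rises of Ccnd1 and Ccnd2 count in both the let-7 list and the miR-290 and miR-302 list.

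Genes of the miRNA machinery changed by less than 2-fold each. Of 23 genes, 9 were higher and 5 lower, median 0.017. The DICER1 partner gene Tarbp2 rose by 0.66 (SE 0.0492), and the terminal uridylyltransferase gene Tut7, which tails let-7 precursors, fell by 0.63 (SE 0.0559). DNA methylation genes were higher in 10 of 19 and lower in 7, median 0.16. Here Dnmt3b and Dnmt3a were higher, Dnmt3a by 0.95, and Tet2, which oxidises methylcytosine, fell by 1.0 (SE 0.038).

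Glycolysis and hypoxia-inducible genes were lower in D1810Y cells than in wild-type cells. Of 21 tested, 3 were higher, 15 lower and 3 not called (all tested genes, 31.9% higher and 28.2% lower), with 6 at least 2-fold lower and a median of -0.45. Bnip3, a mitophagy receptor, read 10.29, 10.21 and 10.21 in D1810Y cells, 8.68 on average in eGFP cells and 12.27, 12.19 and 12.26 in wild-type cells, a change of -2.0 (SE 0.0526, adjusted p = 1.90e-23). Aldoc, an aldolase, read 9.23, 9.09 and 9.22 in D1810Y cells, 8.89 on average in eGFP cells and 10.88, 10.85 and 10.90 in wild-type cells, a change of -1.69 (SE 0.0563). D1810Y cells thus lay between eGFP and wild-type cells for these 2 genes.

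Pfkp, which encodes platelet phosphofructokinase, fell by 1.41 (SE 0.0395), and Egln3, a HIF prolyl hydroxylase gene, fell by 1.41 (SE 0.0577). The other genes at least 2-fold lower were P4ha1 (-1.28) and Ero1a (-1.15), which act in collagen hydroxylation and disulfide formation. Egln3 read 9.13, 9.04 and 9.14 in D1810Y cells, 10.50, 10.57 and 10.49 in wild-type cells and 9.37 in the wild-type array numbered 4. Against eGFP cells the list ran the other way, with 17 of 21 higher, 2 lower and a median of 0.38 (all tested genes, 32.8% higher, 25.7% lower and a median of 0.026).

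Hypoxia-inducible factors bind the core ACGTG, and the promoters of 2 lower genes are shown for its position, in capitals where the core is found on either strand. The windows are the 250 bases before the RefSeq start (GRCm38.p6), for Bnip3 at chr7:138909507-138909756, minus strand, and for Ero1a at chr14:45318573-45318822, minus strand. In Bnip3 the palindrome CACGTG holds the core on both strands and begins 108 bases before the start; in Ero1a the reverse letters CACGT begin 63 bases before it.
Bnip3: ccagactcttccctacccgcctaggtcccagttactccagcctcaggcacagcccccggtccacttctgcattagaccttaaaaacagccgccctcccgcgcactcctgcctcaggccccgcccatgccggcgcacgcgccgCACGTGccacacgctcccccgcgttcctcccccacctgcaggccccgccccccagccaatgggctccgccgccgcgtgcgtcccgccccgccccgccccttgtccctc
Ero1a: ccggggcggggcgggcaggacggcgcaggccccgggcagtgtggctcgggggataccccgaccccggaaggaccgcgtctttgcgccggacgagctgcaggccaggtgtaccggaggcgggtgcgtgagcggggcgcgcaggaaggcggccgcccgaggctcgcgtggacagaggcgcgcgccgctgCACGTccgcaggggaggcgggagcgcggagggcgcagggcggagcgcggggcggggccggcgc
ACGTG on either strand was found in 15 of the 19 list members with a window (78.9%), against 4998 of 27025 genes with a window (18.5%). It was found in 3 of the 3 higher genes, 9 of the 13 lower genes and 3 of the 3 genes not called, so within the list its presence did not follow the direction. A match is a run of letters and does not show a bound site.

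ERK-output and immediate early genes, which respond within minutes to growth factors, were lower as well. Of 30 tested, 8 were higher and 18 lower (all tested genes, 31.9% and 28.2%), with 4 at least 2-fold lower and a median of -0.36. Hbegf, an EGF-family ligand gene, read 9.43, 9.32 and 9.31 in D1810Y cells, 9.91 on average in eGFP cells and 11.12, 11.12 and 11.15 in wild-type cells, a change of -1.78 (SE 0.0476, adjusted p = 3.22e-23). Phlda1 fell by 1.39 (SE 0.0839) and Egr1, the early growth response factor gene, fell by 1.22 (SE 0.0544). The other gene at least 2-fold lower was Nab2, given above. Such genes change quickly on handling, and no measure of the time from culture to lysis is in the labels.

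Germline and meiotic genes were lower in 10 of 15 cases and higher in 2 (all tested genes, 28.2% lower and 31.9% higher), with a median of -0.41. Dazl, an RNA-binding protein gene of germ cells, read 7.16, 7.05 and 7.1 in D1810Y cells, 7.24 on average in eGFP cells and 9.06, 8.86 and 8.93 in wild-type cells, a change of -1.84 (SE 0.0751, adjusted p = 6.14e-19). The meiotic cohesin subunit gene Stag3 fell by 1.58 (SE 0.0597), the synaptonemal complex gene Sycp3 fell by 1.34 (SE 0.127) and the recombinase gene Dmc1 fell by 1.02 (SE 0.0645). Stra8, Tex11 and Slc25a31 were under the filter level, and in a fit without it averaged 5.93, 5.46 and 5.82 in D1810Y cells, against 7.55, 6.85 and 7.04 in wild-type cells (adjusted p = 1.67e-15, 7.66e-13 and 3.82e-11). Dmc1 read 8.17, 8.07 and 8.13 in D1810Y cells, 9.17, 9.11 and 9.14 in wild-type cells and 8.5 in the wild-type array numbered 4.

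**Figure D3:**
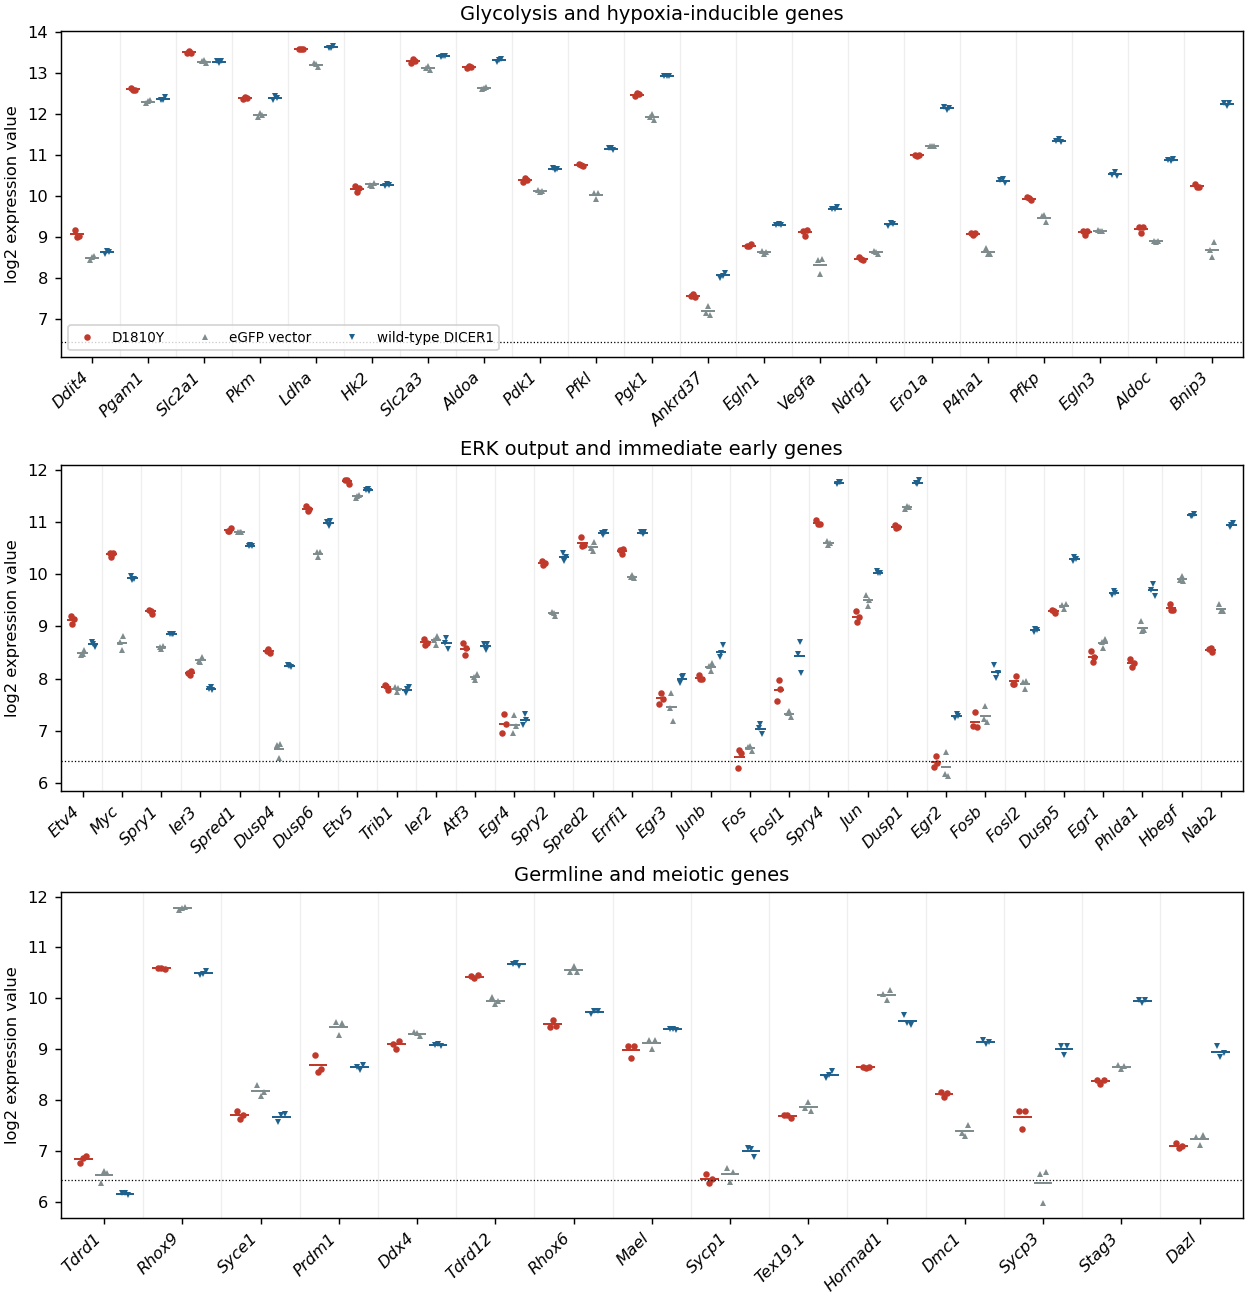
Log2 level of glycolysis and hypoxia-inducible genes, ERK-output and immediate early genes and germline genes (points, 1 per array) in D1810Y, eGFP and wild-type cells. Wild-type arrays are the highest for Bnip3, Aldoc, Nab2, Hbegf and Dazl; eGFP cells lie below D1810Y for Bnip3 and above them for Nab2.

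SRF and YAP target genes, many of them parts of the smooth muscle actin cytoskeleton, split by gene. Of 21 tested, 11 were higher, 6 lower and 4 not called, median 0.18 (all tested genes, 31.9% higher and 28.2% lower). Myl9, myosin light chain 9, read 9.55, 9.3 and 9.42 in D1810Y cells, 8.0 on average in eGFP cells and 7.87, 7.78 and 7.94 in wild-type cells, a rise of 1.56 (SE 0.0834, adjusted p = 4.04e-16). Cnn1, calponin, rose by 1.27 (SE 0.079), and Tagln, transgelin, by 1.2 (SE 0.0728). Nppb, an SRF and YAP target too, was -2.36, the largest fall of the list.

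This group depends on which wild-type arrays are used. Cnn1 read 9.8, 9.67 and 9.92 in D1810Y cells and 10.06 in the wild-type array numbered 4, above all 3. Tagln read 10.04, 10.08 and 10.10 in D1810Y cells and 10.12 in that wild-type array, again above all 3. For Myl9 that array read 8.8, below every D1810Y array. With wild-type arrays 1 to 4 together, the list's median difference was 0.0259 in place of 0.18. Between D1810Y and eGFP cells, 19 of 21 were higher and 2 lower (median 0.57; all tested genes, 32.8% higher and 25.7% lower), with Cnn1 different by 3.04 and Tagln by 1.89.

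The promoters of Myl9 and Actc1, a cardiac actin gene that also rose, are shown for the CArG box, the binding motif of SRF, in capitals. The windows are the 250 bases before the RefSeq start (GRCm38.p6), chr2:156775214-156775463, plus strand, for Myl9 and chr2:114052876-114053125, minus strand, for Actc1. The box begins 161 bases before the start of Myl9 and 47 bases before that of Actc1.
Myl9: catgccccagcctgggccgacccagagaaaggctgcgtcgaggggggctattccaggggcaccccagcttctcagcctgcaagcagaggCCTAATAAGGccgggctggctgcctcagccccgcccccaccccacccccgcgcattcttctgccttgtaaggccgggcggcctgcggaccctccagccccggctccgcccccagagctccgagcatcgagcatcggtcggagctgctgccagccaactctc
Actc1: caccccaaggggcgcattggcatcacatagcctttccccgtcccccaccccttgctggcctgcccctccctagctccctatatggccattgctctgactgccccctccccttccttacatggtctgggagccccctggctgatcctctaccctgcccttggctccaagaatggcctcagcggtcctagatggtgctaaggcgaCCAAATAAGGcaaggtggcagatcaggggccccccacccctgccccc
A CArG box was found in 5 of the 17 list members with a window (29.4%), against 439 of 27025 genes (1.60%): in 3 of the 8 higher, 1 of the 5 lower and 1 of the 4 not called.

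Against the other DICER1 mutants in the same vector the differences were smaller. Between D1810Y and the mean of E1705K and D1709A, 1657 genes (11.9%) were higher and 1909 (13.7%) lower. The count higher fell to 1087 without D1810Y array 1. The median absolute difference was 0.0716, against 0.187 for D1810Y and wild type. At least 2-fold, 9 genes (0.0645%) were higher and 0 lower, while 4909 of 13956 genes had an unadjusted p under 0.05 in either direction.

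Penk, which encodes the opioid peptide precursor proenkephalin, averaged 8.99 in D1810Y cells, 7.89 in E1705K cells, 7.61 in D1709A cells and 7.33 in wild-type cells, and exceeded the other mutants by 1.24 (SE 0.0751, adjusted p = 3.53e-13). Actc1 averaged 9.96 in D1810Y cells, 8.41 in E1705K cells, 9.04 in D1709A cells and 7.91 in wild-type cells, above the other mutants by 1.24 (SE 0.0689). Actc1 spread more among the arrays than most genes, reading 9.94, 9.79 and 10.17 in D1810Y cells. The wild-type array numbered 4 read 9.21 for Actc1, below them.

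Has2 exceeded the mean of E1705K and D1709A by 1.17 (SE 0.0802), Car3 by 1.17 (SE 0.0757) and Gabra3 by 1.07 (SE 0.0831). Fabp7, a brain fatty acid-binding protein gene, averaged 7.89 in D1810Y, 7.18 in E1705K, 6.24 in D1709A and 6.49 in wild-type cells. The falls named here are the 6 largest among genes with every D1810Y array below every array of E1705K and D1709A. They were of Slc15a1 (-0.77), Hal (-0.76), which breaks down histidine, Tcl1 (-0.64), As3mt (-0.64), an arsenite methyltransferase gene, Lrrc2 (-0.62) and Ceacam1 (-0.6), an adhesion molecule gene. Airn (-0.64) and Emp1 (-0.63), not among the 6, fell by more than Lrrc2. That the 6 lay below all of those arrays was a condition of their choice.

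Members of the lists described above also differed from the other mutants. Of 18 primed genes, 15 were higher and 0 lower than in the mean of E1705K and D1709A (median 0.40; all tested genes, 11.9% higher and 13.7% lower); Nes, Pou3f1 and Zic2 exceeded it by 0.83, 0.72 and 0.71 (SE 0.0793, 0.0619 and 0.0614). Of 21 SRF and YAP targets, 15 were higher and 3 lower (median 0.26), with Cnn1, Myl9 and Tagln higher by 0.79, 0.7 and 0.59. Tagln averaged 10.07 in D1810Y cells, 8.97 in E1705K cells and 10.002 in D1709A cells, and only E1705K stood apart. Of 29 pluripotency genes, 2 were higher and 17 lower (median -0.12), and of 15 germline genes, 1 was higher and 9 lower (median -0.28). Egr1 was higher than the other mutants by 0.25 (adjusted p = 1.31e-04) while lower than wild type.

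**Figure D4:**
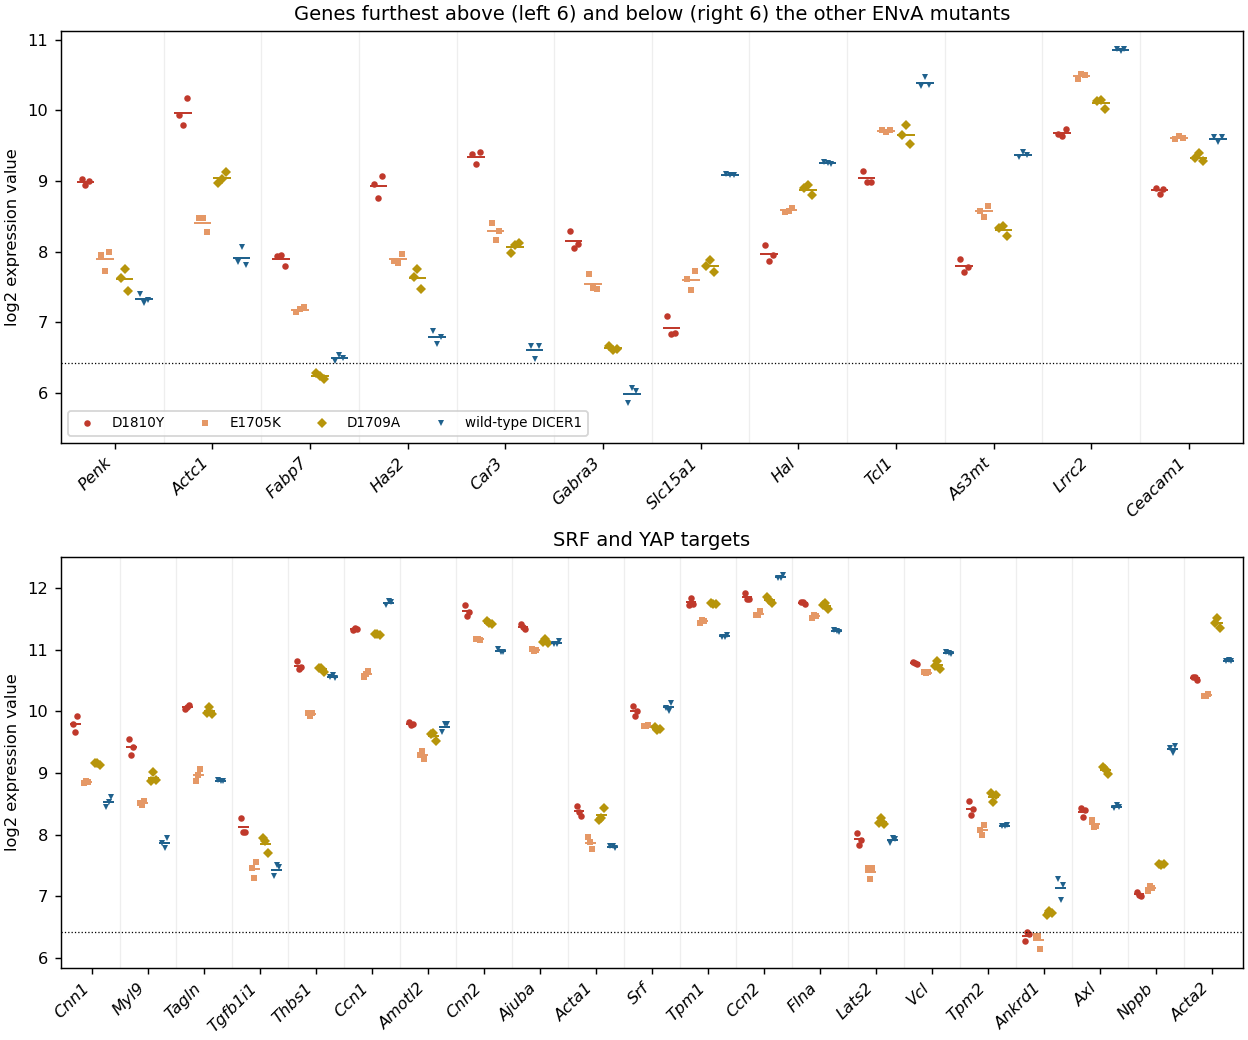
Log2 level of 12 genes named for their difference between D1810Y and the mean of E1705K and D1709A, and of SRF and YAP targets (points, 1 per array), in D1810Y, E1705K, D1709A and wild-type cells. The 12 had no overlap between D1810Y arrays and those of E1705K and D1709A. Some kinds of gene, such as miRNA genes, were left out, so these are not the 12 largest differences of all genes. D1810Y arrays lie above both other mutants for Penk and Actc1 and below them for Slc15a1, Hal and Tcl1, while Tagln in D1709A stands beside D1810Y.

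The remaining lists showed small or mixed differences between D1810Y and wild-type cells. Imprinted genes were higher in 12 of 24 and lower in 6, median 0.16, with Mest (1.37), Ascl2 (1.34) and Nnat (0.98) the largest rises among those tested and Slc22a18 (-0.76) a fall. Ascl2, a trophoblast factor gene in mouse, read 8.82, 8.61 and 8.79 in D1810Y cells, against 7.41, 7.38 and 7.42 in wild-type cells (adjusted p = 1.10e-14). Extracellular matrix genes were balanced, 11 of 25 higher and 11 lower, median -0.047, where the basement membrane gene Nid1 (-1.31) and tenascin C, Tnc (-1.26), fell and the integrin gene Itga3 (1.06) rose. p53 pathway genes were higher in 10 of 20 and lower in 6, median 0.11, led by Plk2 (0.8), Rrm2b (-0.7) and Perp (0.65). Plk2 averaged 9.73 in D1810Y cells and read 9.84 in the wild-type array numbered 4.

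Cell-cycle genes of the G1 to S transition were lower in 12 of 24 and higher in 7, median -0.12. The pocket protein gene Rbl1 (-0.61) and E2f1 (-0.53) were lower, while the cyclin D genes Ccnd1 and Ccnd2 were higher. Sterol synthesis genes were lower in 8 of 16 and higher in 4, median -0.14, with Cyp51 (-0.75) and the feedback regulator gene Insig1 (-0.75) the largest. Insig1 read 11.02, 10.86 and 10.93 in D1810Y cells and 11.04 in the wild-type array numbered 4. Iron handling genes were split, 7 of 15 higher and 6 lower (median 0.0033), although Slc40a1 was among the largest rises of all genes. ATF4 and endoplasmic reticulum stress genes were higher in 11 of 19 and lower in 3 (median 0.15), with Chac1, a glutathione-degrading enzyme gene, up by 0.72. Interferon response genes were higher in 3 of 8 and lower in 1. The GTPase gene Irgm1 averaged 8.29 in D1810Y cells, 8.61 in eGFP cells and 6.31 in wild-type cells, under the filter level (adjusted p = 1.44e-17). Retinoic acid and Hox genes were higher in 4 of 8 and lower in 2.

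Markers of other cell types moved less than the primed genes. Trophoblast genes were higher in 7 of 14 and lower in 4 (median 0.057), neural genes in 7 of 13 and 3 (median 0.12), mesoderm genes in 5 of 16 and 4 (median -0.017), endoderm genes in 4 of 18 and 6 (median -0.050) and fibroblast or feeder genes in 2 of 12 and 5 (median -0.17). Neuronal tubulin, Tubb3, rose by 1.16 (SE 0.091). Postn, a fibroblast matrix gene under the filter level over all arrays, averaged 5.0 in D1810Y cells, 4.81 in eGFP cells and 7.53 in wild-type cells (adjusted p = 2.12e-20, fit without the filter). Dcn, another such gene and also on the imprinted list, went the other way, at 6.97 in D1810Y cells, 6.07 in eGFP cells and 5.83 in wild-type cells. Fewer cells of a type cannot be told apart from less RNA per cell. Of the 2-cell-stage genes only Eif1a was tested, and it fell by 0.37. Housekeeping genes were higher in 4 of 10 and lower in 4 (median 0.011).

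**Figure D5:**
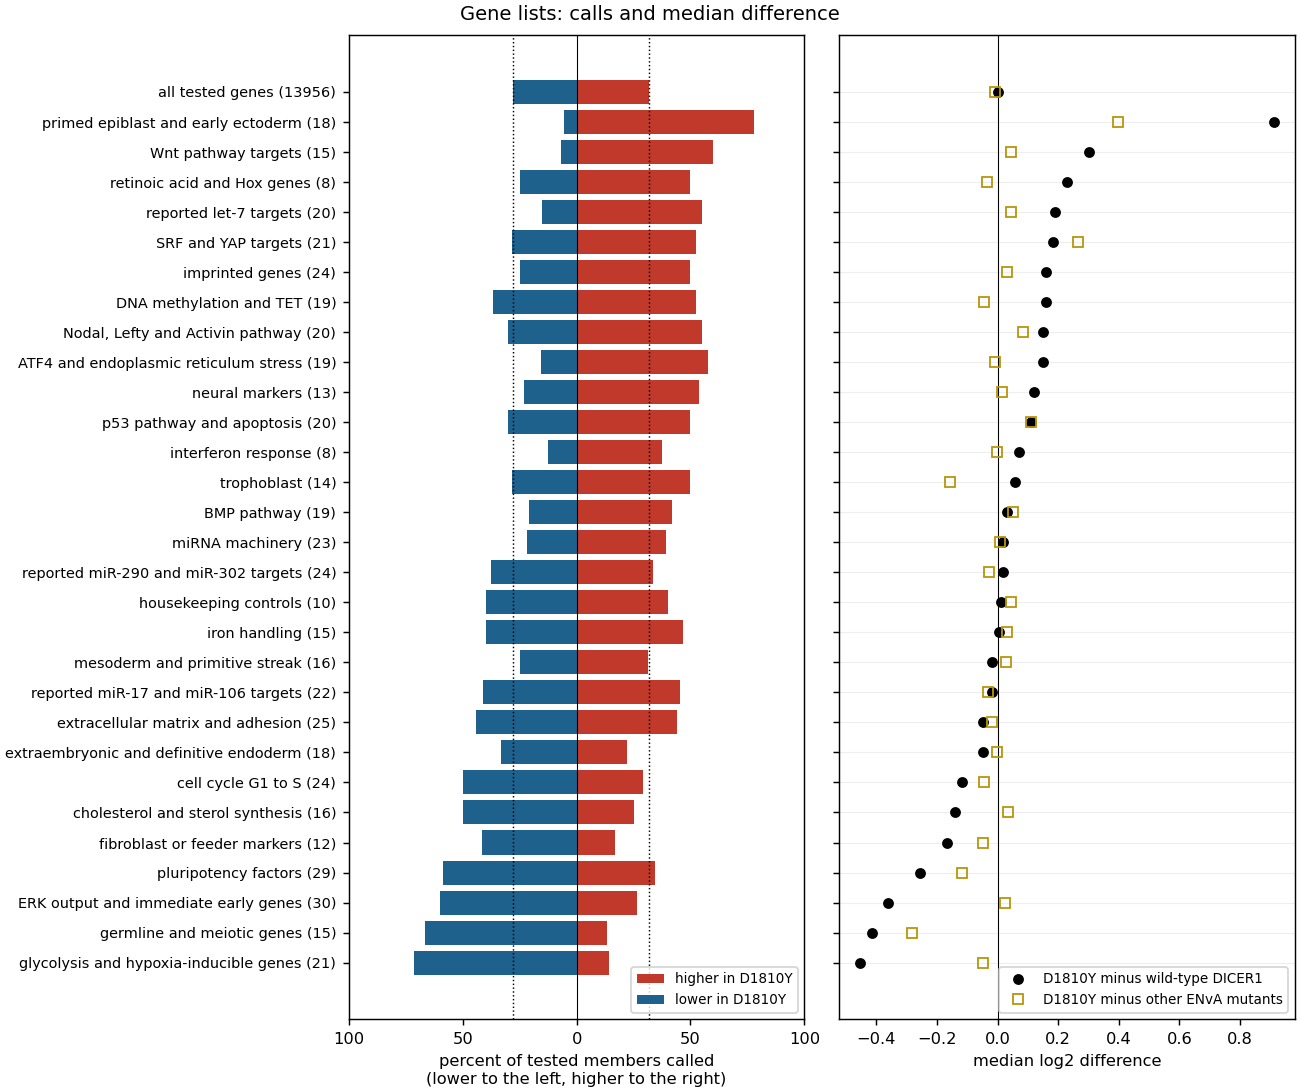
Left, percent of each list's tested genes called higher or lower in D1810Y against wild-type cells (bars), with dotted lines at the values for all genes, 31.9% and 28.2%. Right, the list's median log2 difference against wild type (black dots) and against the mean of E1705K and D1709A (open squares); primed epiblast genes have the highest median and glycolysis and hypoxia-inducible genes the lowest.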

How the data were processed

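The deposited table holds log2 levels made by the authors with RMA in Partek 6.6, per the submitters' processing notes; no source used here gives further settings. Per the labels' protocols, extraction used the Qiagen miRNeasy kit, amplification the Ambion WT expression kit and labelling the GeneChip WT terminal protocol. Of 35556 probe sets, 21789 named 1 gene symbol, 1621 several and 12146 none. One probe set per symbol, that with the highest mean, gave 19938 genes, of which 13956 with a mean above the 30th percentile (6.42) were tested.

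Groups came from the sample titles. A limma 3.58.1 model (R 4.3.3, mean-variance trend, two-sided, Benjamini-Hochberg over all tested genes) held all 28 arrays with 1 coefficient per group, and wild-type array 4 and D1709A array 4 had their own, leaving 16 residual degrees of freedom. Genes at adjusted p under 0.05 were called. The script was tested on simulated data. Named genes were the 14 largest rises and falls whose arrays did not overlap, up to 4 called members of each list, and the 6 largest each way against the other ENvA mutants, leaving out predicted, miRNA, snoRNA, histone and receptor-segment genes. The members and lists were chosen with earlier results of these data known. Same-numbered D1810Y and wild-type arrays deviated together with correlations of 0.168, 0.16 and 0.00598 and were not treated as pairs. For arrays of different number the correlations lay between -0.193 and 0.0448. Alternatives changed the arrays used, the filter, the probe set rule, centring, the trend and a block on array number. Figures were drawn with matplotlib 3.10.9.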

Additional observations from a re-analysis of the deposited data

How the results depend on the processing

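The number of genes called between D1810Y and wild-type cells was 8387 and stayed within 1.5 times of it under every alternative run: 8673 with the 6 arrays alone, 7791 with wild-type arrays 1 to 4, 7501 with all 6 wild-type arrays and a vector term, 8770 without the filter, 7221 with the filter at the 50th percentile, 8447 with arrays centred on their medians, 8403 with the mean of probe sets and 8352 without the trend. In the fit with all 6 wild-type arrays, those in the PGKnvA vector set only the vector term. Its differences therefore equal those with wild-type arrays 1 to 4, and it is no separate check of them. Leaving out 1 array at a time gave 7801 to 8185. With wild-type array 1 as the only control, chosen after seeing the data, it was 6798. Whether the array numbers pair the samples is not known, and the main fit did not treat them as pairs. A replicate block gave 8671 calls over 18 arrays and 8918 over the 6 arrays alone. It changed no call of a named gene. Against the other ENvA mutants, the genes at least 2-fold higher fell to 2 with the filter at the 50th percentile, where fewer genes are tested, and the genes called higher lay between 1087 and 1633 when 1 array was left out. Of 2296 values of the named genes against wild type, Dicer1 reversed without being called, to -0.0283 with wild-type arrays 1 to 4 and with all 6 wild-type arrays, and to -0.00552 with centred arrays. Hprt and Col1a1 lost their calls, Hprt at -0.0867 with wild-type arrays 1 to 4 or all 6 and Col1a1 without D1810Y array 1 or 3 or wild-type array 2 or 3, and at -0.0187 with wild-type array 1 as the only control. All 256 values of the 16 hairpins kept their call. Of 540 list medians 22 moved, among them primed epiblast genes (0.798) and SRF and YAP targets (0.0259) with wild-type arrays 1 to 4; the cause was not tested. Levels under 6.42 limit what can be said of weakly expressed genes.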

Other observations

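Some gene families were chosen after their values were seen, and their counts are descriptions (all tested genes, 31.9% higher and 28.2% lower). All 5 neuronal intermediate filament genes were higher in D1810Y cells, with Ina at 1.77, Nefh at 1.27, Nefl at 1.1, Nefm at 0.41 and Prph at 0.39 on the log2 scale against wild type. Ina and Prph averaged 11.63 and 8.2 in D1810Y cells, above eGFP cells at 11.14 and 7.54. Nefl and Nefm averaged 10.54 and 6.92 in D1810Y cells, below eGFP cells at 11.42 and 7.76. Nefh averaged 9.39 in D1810Y cells and 9.43 in eGFP cells. Carbonic anhydrase genes did not move together: 4 of 13 were higher, led by Car3, Car2 and Car4, and 6 were lower, led by Car8 (-0.98) and Car13 (-0.74). Car4, a membrane-bound carbonic anhydrase, averaged 11.15 in D1810Y cells, 6.55 in eGFP cells and 9.53 in wild-type cells. Of 8 enzymes that lead from choline and betaine to one-carbon units, 5 were lower and 1 higher. Among them Bhmt2 fell by 1.05, and Bhmt, which methylates homocysteine with betaine, averaged 6.32 in D1810Y cells, under the filter level, and 7.75 in wild-type cells.

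The median difference between D1810Y and wild-type cells ranged over chromosomes between -0.0484 on chromosome 13 and 0.0284 on chromosome 5. The share of genes called lower was 37.1% on chromosome 13 and 36.6% on chromosome 18, against 28.2% over all tested genes.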
